A study of Homo sapiens with 4 samples.

Results

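The genes described here are the 150 whose mRNAs were most concentrated in the light polysomes of HEK293T cells. A gene was eligible if it had 100 or more counts summed over the 4 libraries of the gradient, which held for 4343 of the 19948 genes in the table. Counts were scaled to the total of each library (CPM), and genes were ranked by the light polysome CPM as a percentage of the sum of the 4 CPM values, here called the light polysome share. After symbols with any of 23 prefixes of large families (ribosomal proteins, respiratory chain, proteasome, solute carriers and others) were set aside, 3770 genes remained and the top 150 were taken. The members were thus selected on their light polysome share, which is given as a description only. The other 3620 eligible genes are called the other genes throughout.

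HEK293T, a human embryonic kidney line, was treated with cycloheximide at 100 µg/mL for 10 min, and the lysate was fractionated on a sucrose gradient into free, monosome, light polysome and heavy polysome pools. Every pool came from these cycloheximide-treated cells, and no untreated or mutant cells were used here. Capped, polyadenylated RNA of each pool was sequenced directly on nanopores, with 1 library per pool. There is thus no replicate check on any difference, and no p-value is given. Intervals are 95% exact binomial (Clopper-Pearson) intervals. Those on the log2 ratio of a gene cover counting error only. Those on a share of genes treat the genes as independent draws, and cover neither counting error nor differences between libraries.

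Ribosomes load onto an mRNA by scanning from the cap through the 5′ leader to the start codon, and each added ribosome moves the mRNA further down a sucrose gradient. The number of ribosomes on an mRNA is known to depend on how often translation starts, how fast ribosomes elongate and how long the coding sequence is. An ATG in the leader, upstream of the main start, can capture scanning ribosomes, and short upstream reading frames are a known form of translational control in stress-response and growth-control genes.

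The coding sequences of the members were rich in G and C at the third codon position, a measure called GC3. To show this, 24 codons from the middle of the coding sequence are printed for the 3 members with the highest light polysome share, for 2 of the most counted members, and for the 3 eligible genes with the highest heavy polysome share. Capitals mark the third base of each codon. Sequences are from GENCODE release 29 transcripts on hg38 and run 5′ to 3′ in the sense direction.
LRFN4: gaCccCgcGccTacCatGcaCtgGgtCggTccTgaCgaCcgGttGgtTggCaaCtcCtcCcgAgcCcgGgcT
RNPEPL1: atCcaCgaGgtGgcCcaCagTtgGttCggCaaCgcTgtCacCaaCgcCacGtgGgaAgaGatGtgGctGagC
TMEM129: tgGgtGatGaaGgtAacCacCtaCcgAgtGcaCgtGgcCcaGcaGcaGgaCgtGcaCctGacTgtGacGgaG
ARHGDIA: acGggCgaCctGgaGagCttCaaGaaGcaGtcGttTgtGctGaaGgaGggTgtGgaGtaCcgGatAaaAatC
IRAK1: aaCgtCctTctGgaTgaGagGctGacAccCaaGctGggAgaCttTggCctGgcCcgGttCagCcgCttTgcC
AASDHPPT: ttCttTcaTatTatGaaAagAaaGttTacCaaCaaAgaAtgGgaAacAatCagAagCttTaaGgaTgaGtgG
DLD: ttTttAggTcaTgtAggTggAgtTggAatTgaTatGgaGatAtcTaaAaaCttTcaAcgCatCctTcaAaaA
LUC7L3: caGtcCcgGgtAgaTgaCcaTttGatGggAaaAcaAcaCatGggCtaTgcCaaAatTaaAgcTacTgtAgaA

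Of the 24 capital bases in each window, G or C made up 18 in LRFN4, 21 in RNPEPL1, 21 in TMEM129, 20 in ARHGDIA and 18 in IRAK1. In the 3 heavy polysome genes the same count was 11 in AASDHPPT, 5 in DLD and 10 in LUC7L3. Over the whole coding sequence GC3 was 39.5%, 29.3% and 35.2% in these 3. The median of the 150 genes with the highest heavy polysome share was higher, at 51.1%. The members shown had 76.8% to 88.4%, above the member median of 76.7%. The printed contrast is thus wider than that of the medians. The windows cover codons 307 to 330 of LRFN4 (chr11:66856647-66860475, plus strand), 352 to 375 of RNPEPL1 (chr2:240565804-240581372, plus), 170 to 193 of TMEM129 (chr4:1715952-1721358, minus), 91 to 114 of ARHGDIA (chr17:81867721-81871406, minus) and 345 to 368 of IRAK1 (chrX:154010500-154019980, minus). They cover codons 144 to 167 of AASDHPPT (chr11:106075501-106098710, plus), 244 to 267 of DLD (chr7:107890970-107931730, plus) and 205 to 228 of LUC7L3 (chr17:50719544-50756213, plus). Coordinates are those of the whole gene on hg38.

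The second feature, which was not among the planned results, was an ATG in the annotated 5′ leader. Windows of up to 21 bases around every upstream ATG are printed for 6 members with known roles in stress, growth control or transcription. The 6 are examples that carry at least 1, as do 120 of 143 members with a leader of 20 nucleotides or more. The transcription factor HES4 is a member without one. The upstream ATG is in capitals, and the number after the gene name counts the upstream ATGs from the 5′ end. Of the 6 genes printed, HDAC5 lies on chromosome 17 and the others lie on chromosome 19.
PPP1R15A upstream ATG 1: gttgatcttATGcaagacgct
PPP1R15A upstream ATG 2: gagggtgagATGaacgcgctg
STK11 upstream ATG 1: gcctgtgggATGggcggcccg
STK11 upstream ATG 2: ccccggaggATGacctagcac
HDAC5 upstream ATG 1: gccgcaaagATGgaggagccg
HDAC5 upstream ATG 2: gcagcggggATGccgttctga
HDAC5 upstream ATG 3: ccccgaaggATGgcctcggat
HDAC5 upstream ATG 4: tggcctcggATGggcattaga
CSNK1G2 upstream ATG 1: tATGgctgccgcc
CSNK1G2 upstream ATG 2: gtcccgaacATGcggaggccg
CSNK1G2 upstream ATG 3: ggcggtgggATGtgtcagcag
CSNK1G2 upstream ATG 4: gtcagcagaATGtctcctgcc
CSNK1G2 upstream ATG 5: gccgcagtgATGttctagcca
CEBPA upstream ATG 1: aggctcgccATGccgggagaa
BBC3 upstream ATG 1: gcgagccacATGcgagcgggc
BBC3 upstream ATG 2: ggcgtgttcATGcccccgggg

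PPP1R15A (GADD34), the phosphatase subunit that reverses the integrated stress response, has upstream ATGs at 206 and 107 nucleotides before its main start, which open frames of 22 and 26 codons that end inside the leader. The single upstream ATG of CEBPA, a transcription factor of myeloid and fat cell differentiation, lies 25 nucleotides before the main start and opens a frame of 5 codons. Upstream frames are known to control the translation of both mRNAs. STK11 (LKB1), a tumour suppressor kinase upstream of AMPK, carries frames of 18 and 2 codons. HDAC5, a class IIa histone deacetylase, carries 4 frames of 3 to 36 codons, and CSNK1G2, a casein kinase, carries 5 of 2 to 59 codons. BBC3 (PUMA), a pro-apoptotic BH3-only protein, has a frame of 41 codons and a second upstream ATG, 26 nucleotides before the main start, whose frame runs past it. All of these frames except that last one end inside the leader. They are matches in annotated leaders, and their use by ribosomes was not measured.

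The 4 libraries held 355509 counts (free), 1329334 (monosome), 1499401 (light polysome) and 1564531 (heavy polysome), so that 3 counts amount to 8.44 CPM in the free library and to between 1.92 and 2.26 CPM in the other 3. Markers of the line were detected for 6 of 6 genes, from 6 counts for PAX2 to 850 for VIM summed over the libraries. Of 6 genes that HEK293T should lack (markers of blood, liver, pancreas and lung), 5 had 0 counts and HBB had 4. From free to heavy polysome, the members together held 344, 8275, 42271 and 13262 counts, or 0.0968%, 0.622%, 2.82% and 0.848% of each library. Per member the summed count had a median of 244.5 (range 100 to 3096) and was under 200 in 53 members (35.3%, against 38.7% of other genes). In the free library, whose share enters the rule, 42 members had no count (28%, against 15.2% of other genes).

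The light polysome share had a median of 63.6% over the members (60.2% to 81.9%), against 29.97% over the other genes. The last members inside the limit were CCM2 at 60.5%, C2orf68 at 60.3% and OAZ2 at 60.2%, and the first genes outside it were NUDT4B at 60.1%, PLEKHJ1 at 59.98% and NRARP at 59.9%. There is no gap at the limit. Among genes set aside by their prefix, 15 ranked above the last member, with the sugar transporter family gene SLC35A4 the highest at 72.4%.

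LRFN4, a synaptic adhesion molecule, ranked first with 1 count in the free library, 7 in the monosome, 124 in the light polysome and 16 in the heavy polysome library. RNPEPL1, of the aminopeptidase B family, followed with 0, 9, 80 and 11 counts in the same order, and TMEM129, a ubiquitin ligase of the endoplasmic reticulum, with 0, 7, 114 and 27. For these 3 genes the light polysome library held more counts than the other 3 libraries together. Some highly ranked members rested on more counts. NSMF, a messenger between synapse and nucleus, had 3, 127, 630 and 84 counts, and ALKBH5, an RNA demethylase for N6-methyladenosine, had 5, 84, 805 and 220. LRP3, of the LDL receptor family, had 1, 74, 501 and 125. PSKH1, a serine kinase, and CDC42SE1, a small effector of the GTPase CDC42, had more counts in the monosome than in the heavy polysome library (2, 31, 180 and 18, and 1, 38, 163 and 17). HDAC5 leaned to the heavy side of its peak, with 2, 9, 159 and 46.

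**Figure D1:**
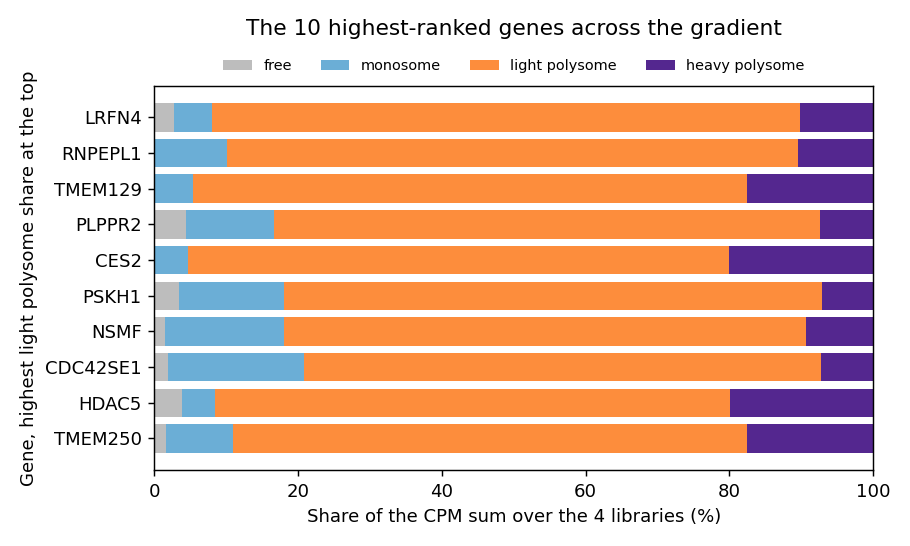
Stacked bars give, for the 10 genes with the highest light polysome share, the percentage of the 4-library CPM sum found in each library, from free to heavy polysome along the x axis. The light polysome segment spans 71.5% to 81.9% in these 10 genes, and the segments on either side of it differ between them: CES2 has the widest heavy polysome segment (20.03%) and CDC42SE1 the widest monosome segment (18.9%).

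Among the most counted members, ARHGDIA, an inhibitor of GDP release from small GTPases, had 17 counts in the free, 336 in the monosome, 1934 in the light polysome and 809 in the heavy polysome library. IRAK1, a kinase of interleukin-1 and Toll-like receptor signalling, had 7, 207, 1868 and 593 counts in that order. ENSA, an inhibitor of the phosphatase PP2A in mitosis, had 46, 358, 1745 and 457. UCP2, a mitochondrial carrier of the uncoupling protein family whose mRNA has a known inhibitory upstream frame, had 4, 214, 948 and 231. For these genes, as for those above, the highest count was in the light polysome library. That holds for every member, by the rule.

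By a call of at least 2-fold with a counting interval that excluded equal shares, 148 of 150 members (98.7%) were higher in the light than in the heavy polysome library, against 21.6% of all eligible genes. All 150 were higher in light polysome than in monosome (53% of eligible genes) and all 150 were higher in light polysome than in free (77.9%). Members called lower numbered 0 in each of these comparisons, against 39% of eligible genes for light against heavy polysome, 3.05% for light polysome against monosome and 0.875% for light polysome against free. The rule used these contrasts, so these counts are a property of how the members were chosen.

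The members differed in how the remaining RNA was divided. Their heavy polysome share ranged from 6.69% to 33.1% with a median of 19.5%, and their monosome share from 3.22% to 30.1% with a median of 12.3%. In the other genes the medians were 48.5% heavy polysome and 12.8% monosome. A light polysome share over 60% caps each of the other shares at under 40%, so the rule fixes part of this difference in the heavy polysomes. The log2 ratio of heavy polysome to monosome CPM, with 0.5 added to each count, had a median of 0.65 over the members (-2.16 to 2.93), and 44 of 150 lay below 0 (29.3%). Its median over the other genes was 1.94, and 736 of 3620 lay below 0 (20.3%). The cap on the heavy polysome share also bears on this ratio. The rule thus fixes part of the difference in its medians and calls between members and other genes.

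In this comparison 57 members (38%) were called higher in heavy polysome, against 67% of eligible genes, and 13 (8.67%) were called higher in monosome, against 11.5%. The sign depends on how libraries are scaled. The median log2 ratio of all eligible genes was 0.47 with edgeR's TMM factors, against 1.87 with CPM. Over the same members it was 0.65 with CPM and -0.75 with TMM. It was -0.79 with DESeq2's size factors and -0.19 with ribosomal protein genes left out of the totals. With TMM, 4 of the same members were called higher and 61 lower in heavy polysome, where 36.4% and 25.0% of eligible genes were. DESeq2's size factors gave 4 and 63 members, where 35.6% and 25.4% of eligible genes were called. With ribosomal protein genes left out of the totals, 22 and 34 members were called, where 50.6% and 18.7% of eligible genes were. With the same members kept, a scaling moves all genes alike, so their median stays 1.29 log2 units below that of the other genes by construction. With the 150 genes chosen anew under each scaling, the median of the genes taken minus that of the rest was -0.44 with TMM, -0.44 with DESeq2 and -0.77 without ribosomal protein genes in the totals, against -1.29 with CPM.

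At the heavy polysome end of the members were TBC1D16, a GTPase-activating protein for RAB proteins, with a log2 heavy polysome to monosome ratio of 2.93 (1.62 to 5.03), and MIGA2, a mitochondrial outer membrane protein, with 2.84 (1.35 to 5.40). CEBPA followed with 2.81 (1.69 to 4.42). HAND1, a developmental transcription factor, had 2.50 (1.50 to 3.85). These 4 rest on 3 to 8 counts in the monosome library. CHMP1A, a subunit of the ESCRT-III membrane scission complex, had 1, 33, 430 and 216 counts from free to heavy polysome and a ratio of 2.46 (1.94 to 3.05).

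At the monosome end, USB1, an exonuclease that trims U6 snRNA, had 8, 329, 745 and 86 counts from free to heavy polysome and a log2 ratio of -2.16 (-2.53 to -1.82). E2F1, a transcription factor of the G1 to S transition, had 1, 167, 387 and 54 and a ratio of -1.85 (-2.33 to -1.41). BRD3OS had -1.82 (-2.70 to -1.06), and the tetraspanin TSPAN17 had -1.60 (-2.25 to -1.01). OAZ2, an antizyme that inhibits polyamine synthesis and is made through a ribosomal frameshift, had 7, 222, 566 and 98 counts and -1.41 (-1.77 to -1.07). These 10 genes were picked as the extremes of this ratio. Across the 150 members this ratio went weakly with transcript length (Spearman rho 0.26) and coding length (0.20), and its rho with the number of upstream ATGs was 0.0008 over 143 members. These are descriptions over genes that share the same libraries.

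**Figure D2:**
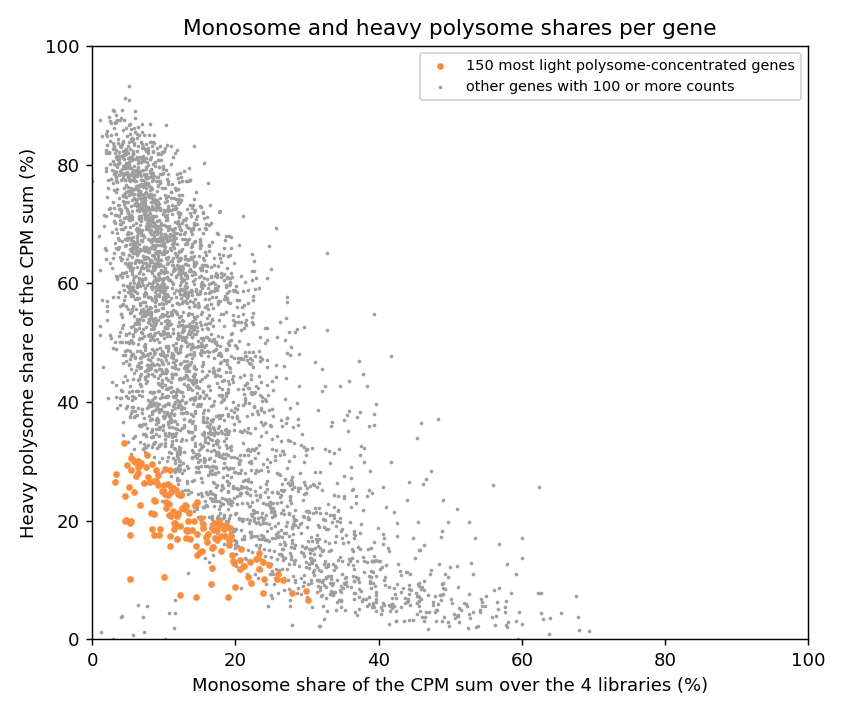
Each point is 1 of the 3770 eligible genes, with its monosome share on the x axis and its heavy polysome share on the y axis, both in percent of the 4-library CPM sum. The members form a band near the lower left edge, where both shares are under 40%, running from CEBPA at 33.1% heavy polysome and 4.41% monosome to USB1 at 6.69% and 30.1%.

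GC3 was not part of the rule. Its median was 76.7% over the members (lower and upper quartile 68.8% and 83.2%) and 61.9% over 3606 other genes with a coding sequence (47.3% and 74.7%). The 150 genes with the highest monosome share had a median of 48.3%, and the 150 with the highest heavy polysome share had 51.1%. The median GC3 of the members was thus above that of both sets. Neither set holds a member. The rule limits how high the monosome and heavy polysome shares of a member can be, so this lack of overlap is a property of the choice. Of genes with a GC3 under 45%, 1 of 763 was a member (0.131%), and this was CCNI, cyclin I, at 44.3%. The share was 11 of 908 (1.21%) from 45% to under 60%, 54 of 1120 (4.82%) from 60% to under 75%, and 84 of 965 (8.70%) at 75% and over. GPR27, an orphan receptor, at 95.7%, and CEBPA at 94.97% were among the highest values. The 12 members under 60% were CCNI, the ubiquitin-like modifier SUMO2, NUDT4, GALNT11, ATG13, SNX11, CDC42SE1, PPP1R15A, MBD6, USP21, DAP and TBC1D14.

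**Figure D3:**
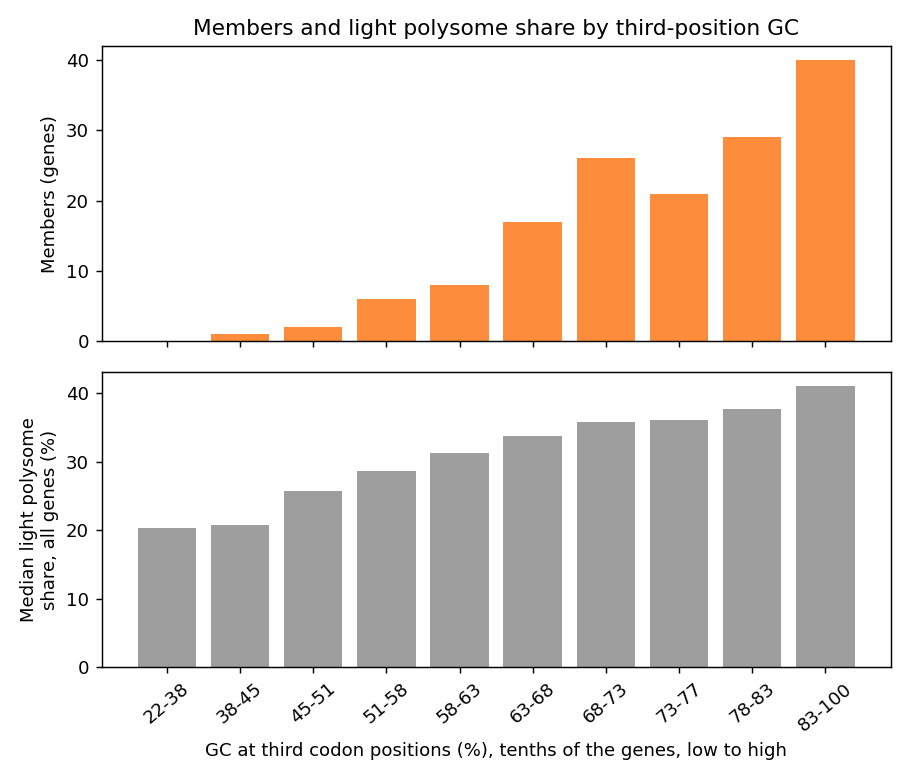
Eligible genes are split into 10 groups of near equal size by GC3 (x axis, range of each group in percent). The upper panel counts members, which number 0, 1, 2, 6, 8, 17, 26, 21, 29 and 40 from the lowest to the highest group, and the lower panel gives the median light polysome share of all genes in the group, from 20.3% in the lowest to 41.1% in the highest.

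The rest of the transcript was also GC-rich. The GC content of the 3′ untranslated region had a median of 56.8% over the members and 44.4% over the other genes, and that of the whole transcript was 59.7% and 51.4%. The 5′ leaders were closer, at 71.5% over the members and 68.4% over the other genes. The members were thus higher in GC both in codons and in the 3′ untranslated region, which is not translated. Across 3756 eligible genes, the light polysome share had a Spearman rho of 0.36 with GC3, while the free, monosome and heavy polysome shares had -0.19, -0.20 and -0.10. Weighted by counts, the mean GC3 of a whole library was 62.0% in free, 61.7% in monosome, 63.4% in light polysome and 60.5% in heavy polysome. Position in the gradient and a GC preference of a single library preparation cannot be told apart with 1 library per pool.

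Coding length separated the members less. It had a median of 948 nucleotides over the members (207 to 3840) and 1044 over the other genes, against 660 in the monosome set and 1257 in the heavy polysome set. The shortest were GNG7, a G protein gamma subunit, at 207, MMP24OS at 216, and NRGN, the calmodulin-binding protein neurogranin, at 237. In the transcripts chosen, the longest were SCAP, the cholesterol-sensing escort of SREBP, at 3840, the lipid flippase ATP8B2 at 3672, and HDAC5 at 3372. This order and the range depend on the transcript. ANKRD11 had 1101 in its principal transcript and 7992 in the one with its longest coding sequence. With the longest coding sequence of every gene, the medians were 1015.5 over the members and 1063.5 over the other genes. The coding sequence was 1200 nucleotides or longer in 50 members (33.3%) and 1457 of 3606 other genes (40.4%). SCAP, with 0, 19, 217 and 97 counts from free to heavy polysome, and GNG7, with 2, 28, 89 and 14, had light polysome shares of 65.5% and 62.5%. From the shortest class to the longest, members were 4.96% of genes under 300 nucleotides, 4.75% from 300 to under 600, 4.28% from 600 to under 1200, 3.28% from 1200 to under 2400 and 3.52% at 2400 and over, against 3.98% of all eligible genes. In the same order, the median light polysome share of all genes in the class was 43.8%, 41.8%, 29.1%, 24.0% and 32.5%. Across 3756 eligible genes this share had a Spearman rho of -0.28 with coding length. The order of the coding length medians of members and other genes changes with the scaling: with TMM factors the members taken had 1095 and the rest 1038.

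Within a class of coding length, the light polysome share was higher at higher GC3. In genes of 600 to under 1200 nucleotides, 37 of 380 with a GC3 of 75% and over were members (9.74%), against 1 of 311 under 45% (0.322%). In genes of 1200 to under 2400 nucleotides the counts were 24 of 338 (7.10%) and 0 of 266.

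**Figure D4:**
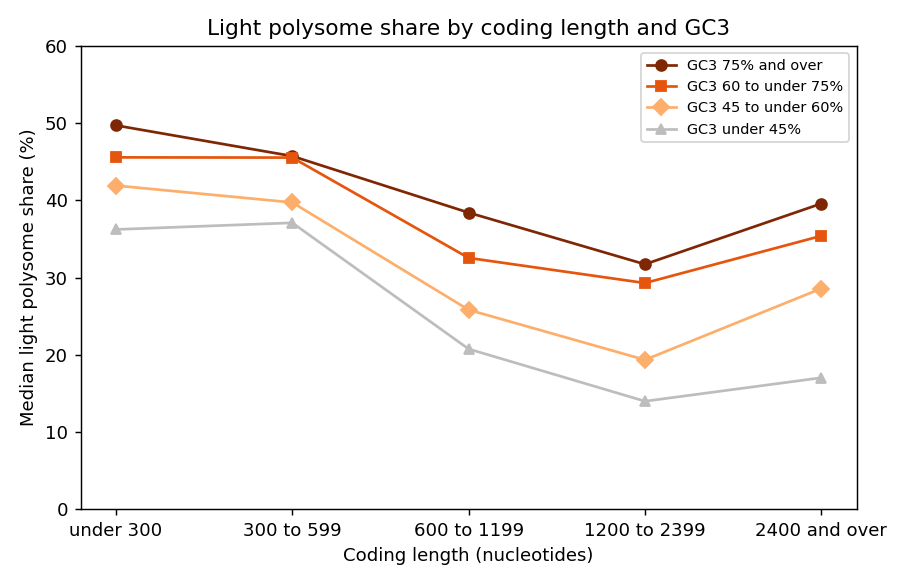
The median light polysome share of eligible genes (y axis, percent of the 4-library CPM sum) is drawn by class of coding length (x axis, nucleotides) with 1 line for each of 4 classes of GC3. In each length class the line for 75% and over is highest and that for under 45% is lowest. From 1200 to under 2400 nucleotides these medians are 31.7% and 13.99%.

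By their medians, members also had longer untranslated regions and fewer exons than the other genes. The 3′ untranslated region had a median of 1230 nucleotides over the members and 857.5 over the other genes, and the 5′ leader had 248.5 and 194. The upper quartiles of 3′ length were close, at 1883 and 1895. The light polysome share had a Spearman rho of -0.001 with 3′ length and 0.084 with leader length over 3756 eligible genes. In the monosome and heavy polysome sets the 3′ medians were 723 and 1207.5, so members were close to the heavy polysome set. The leader medians of these sets were 205 and 188. The number of exons had a median of 6 over the members and 8 over the other genes, and the gene span one of 15541 and 22603 base pairs. The monosome set also had a median of 6 exons, and the heavy polysome set had 11. A single exon made up the transcript in 11 of 150 members (7.33%, 3.72% to 12.7%), among them CEBPA, GPR27, RAP2B and RNF26, and in 98 of 3606 other genes (2.72%, 2.21% to 3.30%). By chromosome, members ranged from 0 of 34 eligible genes on chromosome 21 to 17 of 224 on chromosome 11 (7.59%), around the 3.98% of all eligible genes.

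An upstream ATG was present in 120 of the 143 members with an annotated leader of 20 nucleotides or more (83.9%, 76.9% to 89.5%) and in 1782 of 3478 other genes (51.2%, 49.6% to 52.9%). The monosome set had 108 of 140 (77.1%, 69.3% to 83.8%) and the heavy polysome set 45 of 149 (30.2%, 23.0% to 38.3%). Members were thus close to the monosome set and far from the heavy polysome set in this feature, while in GC3 they stood apart from both. At least 2 upstream ATGs were found in 79 members (55.2%) and 1016 other genes (29.2%). A frame that ends inside the leader was found in 108 members (75.5%) and 42.5% of other genes, and one that runs past the main start in 45 (31.5%) and 16.6%. An upstream ATG in frame with the main start and with no stop between was found in 2 members (1.40%) and 2.56% of other genes.

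Longer leaders hold more ATGs, so members were compared by leader length. Of members with leaders of 100 to under 200 nucleotides, 25 of 36 had an upstream ATG (69.4%, 51.9% to 83.7%), against 38.9% of other genes. From 200 to under 400 nucleotides it was 43 of 48 (89.6%, 77.3% to 96.5%) against 64.0%. At 400 and over it was 49 of 49 against 90.2%. From 20 to under 100 nucleotides it was 3 of 10 against 15.3%, with an interval of 6.67% to 65.2% that includes the value of the other genes. With other genes weighted to the leader lengths of the members, 63.2% of them had one.

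**Figure D5:**
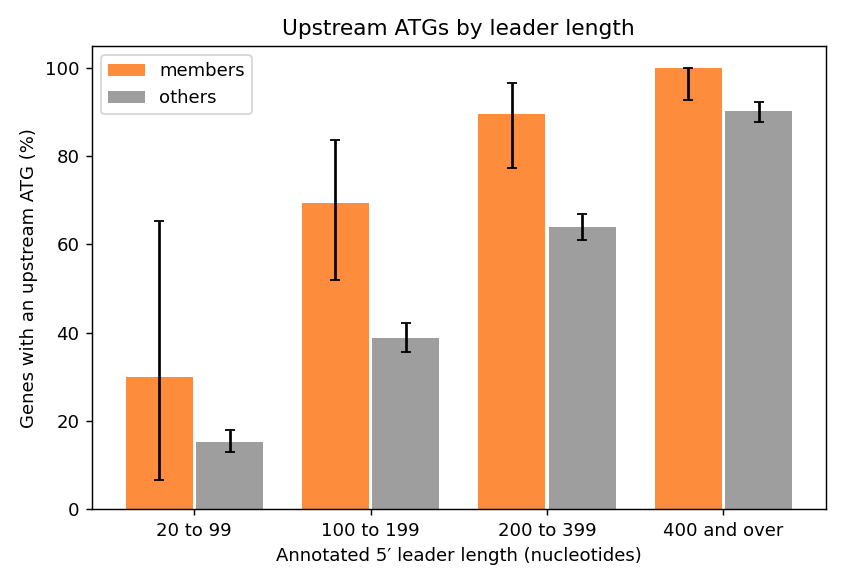
Bars give the percentage of genes with an upstream ATG (y axis) by class of annotated leader length (x axis, nucleotides), members on the left and other genes on the right of each pair, with 95% Clopper-Pearson intervals as error bars. Members stand at 30.0%, 69.4%, 89.6% and 100% from the shortest to the longest class and other genes at 15.3%, 38.9%, 64.0% and 90.2%.

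Both features together marked 110 of 143 members (76.9%), which had a GC3 of 60% or more and an upstream ATG, and 914 of 3478 other genes (26.3%). Neither was found in 2 members (1.40%), SUMO2 and DAP, and in 749 other genes (21.5%). Of eligible genes with a GC3 of 75% and over, 66 of 445 with an upstream ATG were members (14.8%), against 12 of 466 without one (2.58%). Their median light polysome shares were 43.5% and 32.8%. At a GC3 under 45% the median shares were 23.3% with and 17.4% without an upstream ATG, so the light polysome share was higher with an upstream ATG at both ends of the GC3 range.

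The main start codon had a purine 3 bases upstream in 118 of 144 members (81.9%, 74.7% to 87.9%) and 87.9% of other genes (86.8% to 89.0%), and a G directly after the ATG in 48.0% (39.8% to 56.3%) and 55.1% (53.4% to 56.7%). In both positions the intervals of members and other genes overlap. For the purine, the value of the other genes (87.93%) lies just above the upper end of the members' interval (87.85%). For the G, the value of the other genes lies within the members' interval.

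Members are spread over many functions, and gene lists of pathways in these cells were read against the 3.98% of all eligible genes that are members. The apoptosis list had 3 of 22 (13.6%). BAK1, which permeabilises mitochondria, had 2, 53, 347 and 106 counts, the survival factor BCL2L1 had 1, 18, 128 and 45, and BBC3 had 0, 13, 88 and 26. The 3 members thus include factors that promote and one that blocks cell death. At least 2 upstream ATGs were annotated in each of the 3 and in 6 of the other 19 genes of the list (31.6%).

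Growth-response and developmental transcription factors gave 7 of 62 (11.3%): HES4 and HES6, of the hairy and enhancer of split family of repressors, E2F1, HOXD13, CEBPA and the nuclear receptors ESRRA and NR1H2. HES4 had 7, 111, 445 and 141 counts from free to heavy polysome, and HOXD13 had 1, 60, 355 and 92. Their heavy polysome to monosome log2 ratios run from -1.85 for E2F1 to 2.81 for CEBPA, nearly the whole range of the members.

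The kinase list had 4 of 63 (6.35%). CSNK1G2 had 0, 114, 540 and 136 counts from free to heavy polysome, STK11 had 1, 76, 444 and 126, and STK40 had 2, 132, 387 and 85. The phosphatase list had 3 of 39 (7.69%), DUSP22, PPP1R15A and PPP1R16A, and PPP1R15A had 1, 22, 91 and 29 counts. Chromatin enzymes had 3 of 39 (7.69%): HDAC5, the acetyltransferase NAA60 and the histone methyltransferase KMT5C.

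Ubiquitin ligases and adaptors had 4 of 78 (5.13%), KLHDC3, RNF26, RNF41 and MARCH9, and membrane trafficking had 5 of 100 (5.00%), among them CHMP1A, YIPF2 and the SNARE proteins BET1L and VAMP2. Lysosomal genes had 1 of 23 (4.35%), STARD3, and genes of tRNA and rRNA modification had 1 of 50 (2.00%), RPP25. The lists of translocon and glycan transfer genes and of small mitochondrial proteins had 0 of 77 and 0 of 78. Genes were also grouped by the letters before the first digit of the symbol, and only groups with 3 or more members were kept. Members were 3 of 6 eligible genes named TSPAN (TSPAN4, TSPAN17 and TSPAN33), 3 of 33 named PPP, 4 of 64 named TMEM and 5 of 60 named C. Tetraspanins with other names were not counted. These groups were kept for their members, so the shares are descriptions only.

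Some counts are uncertain for how reads were assigned. A processed copy named after the gene exists in the annotation for 11 members (7.33%), SUMO2 with 18 copies and ABHD17A with 8 among them, against 18.0% of other genes, and 40 members (26.7%) overlap a protein-coding gene on the opposite strand, against 31.7%. NUDT4 is a member and its near-identical copy NUDT4B was the first gene outside the limit. BRD3OS and MMP24OS are named as opposite-strand genes of their neighbours. With overlapping genes and genes with copies left out, the median GC3 was 76.5% over the members and 63.4% over the other genes, and 86.0% and 50.7% had an upstream ATG.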

How the data were processed

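The deposited values are whole-number counts of reads per gene, not normalized, in 1 table with a column for each of the 4 libraries. Per the submitters' processing notes, minimap2 2.15, featureCounts from Subread 1.6.2 and the hg38 build were used. For the annotation release, strand and reads with several alignments, the settings were not given in the sources used here. The members and the gene lists were chosen with earlier results of these data known. Transcript features came from GENCODE release 29, which matched 3767 of 3770 eligible genes (3756 with a coding sequence), using the principal transcript and, among ties, the longest coding sequence. Leaders under 20 nucleotides and 3′ untranslated regions under 50 nucleotides were left out. That release may differ from the one counted.

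Log2 ratios add 0.5 to each count. A call needs a 2-fold difference and a Clopper-Pearson interval that excludes equal shares. With 1 library per pool, edgeR's quasi-likelihood test could not be fitted; edgeR 4.0.16 and DESeq2 1.42.0 (R 4.3.3) gave scaling factors only. Floors and the intervals on ratios of single genes cover counting error only. Intervals on shares of genes treat the genes as independent draws and hold no counting error. Genes named were the top 20 by light polysome share, the 20 most counted, those at the limit, the 5 at each end of the heavy polysome to monosome ratio, the 3 shortest and longest, and the leading members of each list and family, with some left out; the highest and lowest GC3 values, single-exon genes and genes with copies were named after their values were seen. Scripts ran in Python 3.11.15 with scipy 1.17.1, pandas 2.3.3, matplotlib 3.10.9 and numpy 2.4.6. Some results on single genes and on 1 gene list do not appear in the text.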

Additional observations from a re-analysis of the deposited data

How the results depend on the processing

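No paired analysis was possible because there is 1 library per pool and the labels give no replicate numbers. Where an alternative bears on the choice of members, the genes were chosen anew. GC3, 3′ GC and the share with an upstream ATG were above those of the other genes in every alternative run. The order of coding length against the other genes turned round in 5 alternatives, given below. The interval of a reported value was taken over the member genes, by ranks for medians and by Clopper-Pearson for shares. Where other genes were weighted to the members, the value of the members cannot move and counts as within it. Over all results, 57 values stayed within the interval of the reported value and 35 moved out of it. Thinning lowers the depth and, under the same minimum count, also the number of eligible genes. Otherwise the cause was not tested. The median light polysome share was 65.6% with a minimum count of 50, 59.1% with 300, 66.5% for the top 75, 60.1% for the top 300, 60.7% with TMM, 59.8% with DESeq2 size factors, 60.8% with totals without ribosomal protein genes, 65.2% without the free library and 58.7% after thinning to the shallowest library. The median coding length was 1095 nucleotides with TMM, 1095 with DESeq2 and 771 thinned, and the other genes had 1038 with TMM and with DESeq2. It also passed that of the other genes without ribosomal protein totals (1083 and 1038), with no prefix dropped (1015.5 and 993) and at a minimum of 300 (864 and 861). GC3 was 72.3% thinned. The 3′ untranslated length was 1046.5 nucleotides at a minimum of 300, 1469 for the top 75, 1407 with TMM, 1460 with DESeq2 and 932 thinned. The log2 heavy polysome to monosome median was 0.0499 with TMM, 0.013 with DESeq2 and 0.31 without ribosomal protein totals, each for newly chosen genes, and the other genes had 0.49, 0.46 and 1.08. The share called higher in light than in heavy polysome was 84.7% at a minimum of 300, 100% for the top 75, 85.0% for the top 300, 94.0% with DESeq2, 92.7% without ribosomal protein totals and 83.3% thinned. The share with an upstream ATG was 71.0% at a minimum of 300, 74.9% for the top 300, 76.8% with DESeq2, 68.5% thinned and 75.4% with the shortest leader of tied transcripts. The GC of the 3′ untranslated region was 54.3% at a minimum of 300, 54.4% for the top 300 and 53.8% thinned. Of the 150 members, 49 remained after thinning, which left 1262 eligible genes of 3770, 65 at a minimum of 300, which left 1659, 102 with TMM, 101 with DESeq2 and 136 without the free library. Depth limits the free library most. The upstream ATG and the 3′ GC content as features, with their alternatives, were not planned and were chosen after seeing the data. So were the leaving out of overlapping and copied genes and the scalings with the same members kept.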
